A study of Mus musculus with 16 samples.

Results

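The clustered protocadherins were 58 of the 20730 genes measured in each library. They were taken by name as all genes of the alpha, beta and gamma protocadherin clusters, which lie side by side on mouse chromosome 18. The alpha cluster had 14 members, of which 12 are variable and 2 are C-type. The beta cluster had 22 members, and the gamma cluster had 22, of which 12 are of the A type, 7 of the B type and 3 C-type. Pcdhgb8 is listed by RefSeq as a transcribed pseudogene. The 12 protocadherin genes of the table that lie outside the clusters were left out.

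Clustered protocadherins are membrane proteins of the cadherin superfamily that bind the same isoform on a neighbouring cell, and combinations of them let neurites of 1 neuron recognise and avoid each other. In the alpha and gamma clusters every variable exon has its own promoter and is spliced to constant exons that the whole cluster shares, whereas each beta gene is a single exon. Neurons pick variable promoters in a partly random way that depends on CTCF, cohesin and DNA methylation, while the C-type members are expressed more broadly. Astrocytes also make gamma protocadherins, which take part in contacts between astrocytes and synapses.

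RNA came from whole striata of 8 adult C57BL/6N mice, all of which carried a RiboTag virus that puts hemagglutinin-tagged Rpl22, a protein of the large ribosomal subunit, into astrocytes. The PMCA mice (n = 4) also received a virus for hPMCA2w/b, a human plasma membrane pump that removes calcium from the cell and so dampens calcium signals. The control mice (n = 4) received a virus for a control protein in its place. RNA on the tagged ribosomes (precipitate, IP) and RNA of the cleared lysate (input) were sequenced from each mouse, which gave 4 libraries each of PMCA IP, control IP, PMCA input and control input. The promoters that drive the viral genes, the identity of the control protein and the sex of the animals are not stated in the sources used here.

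Libraries held 48.1 to 55.1 M reads in PMCA IP, 46.8 to 58.5 M in control IP, 32.3 to 40.9 M in PMCA input and 33.1 to 40.2 M in control input. All 15 astrocyte markers examined rose in IP over input, with a median log2 fold of 3.22 in PMCA mice and 3.18 in control mice, and all 12 microglial markers fell. Rpl22 itself was lower in PMCA mice (log2 fold -1.69 in IP and -0.88 in input), so an effect of the pump and an effect of a lower Rpl22 level cannot be told apart in any comparison of PMCA with control mice. One mouse of each treatment, PMCA 3 and control 4, had a high level of Xist, the RNA that silences an X chromosome. For control 4 the title and the source name disagree on the animal number. In such bulk samples fewer cells of a type and less RNA per cell cannot be told apart.

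All 58 members had enough reads to be tested in every comparison, with between 11 reads (Pcdhb1) and 36273 reads (Pcdhgc3) in a library. How reads on the shared constant exons, or on stretches that are alike between neighbouring genes, were counted is not stated in the sources used here. If reads of constant exons had been added to every gene of a cluster, the gene with the fewest reads in a library would bound that addition. In the alpha cluster this gene was Pcdha4 or Pcdha8, with 12 to 46 reads, while Pcdhac2 had 1242 to 1979, so the levels of Pcdhac2 cannot be mostly reads added in this way. The bound does not cover constant-exon reads given to only some genes of a cluster. In the gamma cluster, leaving out the pseudogene, the fewest reads of any member were 282 to 655 in an IP library (Pcdhga1 or Pcdhgb5) and 235 to 371 in an input (Pcdhgb1, Pcdhgb4, Pcdhgb5 or Pcdhgc4). Pcdhgc3 had 23627 to 36273 reads in an IP and 1980 to 2863 in an input. Several other gamma members lay close to the bound, which says little about their reads. In control IP 1 the bound was 655, with 662 reads for Pcdhgb4 and 705 for Pcdhga5. In PMCA input Pcdhgb4 had 262 to 405 reads and Pcdhgc4 had 238 to 371. Since the lengths of the alpha and gamma transcripts were not used here, levels of different alpha or gamma genes are given only as shares of reads and are not compared per length.

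The comparison of IP with input asked which members were on tagged ribosomes more than in the striatum as a whole. Most gamma members rose in IP in both treatments, and most beta members fell in IP in PMCA mice. In PMCA mice 17 of 22 gamma members rose and none fell (median log2 fold 0.90), 7 of 14 alpha members fell and none rose (median -0.51), and 16 of 22 beta members fell and none rose (median -0.46). Control mice showed 16 of 22 gamma members higher and none lower (median 0.71), 4 of 14 alpha members lower and none higher (median -0.23), and 7 of 22 beta members lower with 3 higher (median -0.23). Across all genes tested 76.8% passed the threshold in PMCA mice (37.4% higher, 39.3% lower) and 77.5% in control mice (39.1% higher, 38.4% lower), with medians of -0.04 and -0.00. All IP libraries lay above all inputs for 17 members in PMCA mice and below for 20 (35.6% and 35.8% of all genes). In control mice these numbers were 19 and 4 (37% and 35.3% of all genes). With total reads in place of the authors' scaling factors, 16 members were higher and 34 lower in PMCA mice (17 and 23 with those factors), and 15 were higher and 26 lower in control mice (19 and 11 with them), while the median of all genes was -0.35 and -0.28. The threshold is a Benjamini-Hochberg adjusted p of 0.05 over all genes tested, in limma on log2 CPM (reads of a gene scaled to the size of its library), two-sided. These fits did not pair the IP and input of a mouse, and a fit with the animal as a replicate block is an alternative given below. The same 16 members were higher in IP in both treatments and the same 9 were lower in both, and no member was higher in one and lower in the other.

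**Figure D1:**
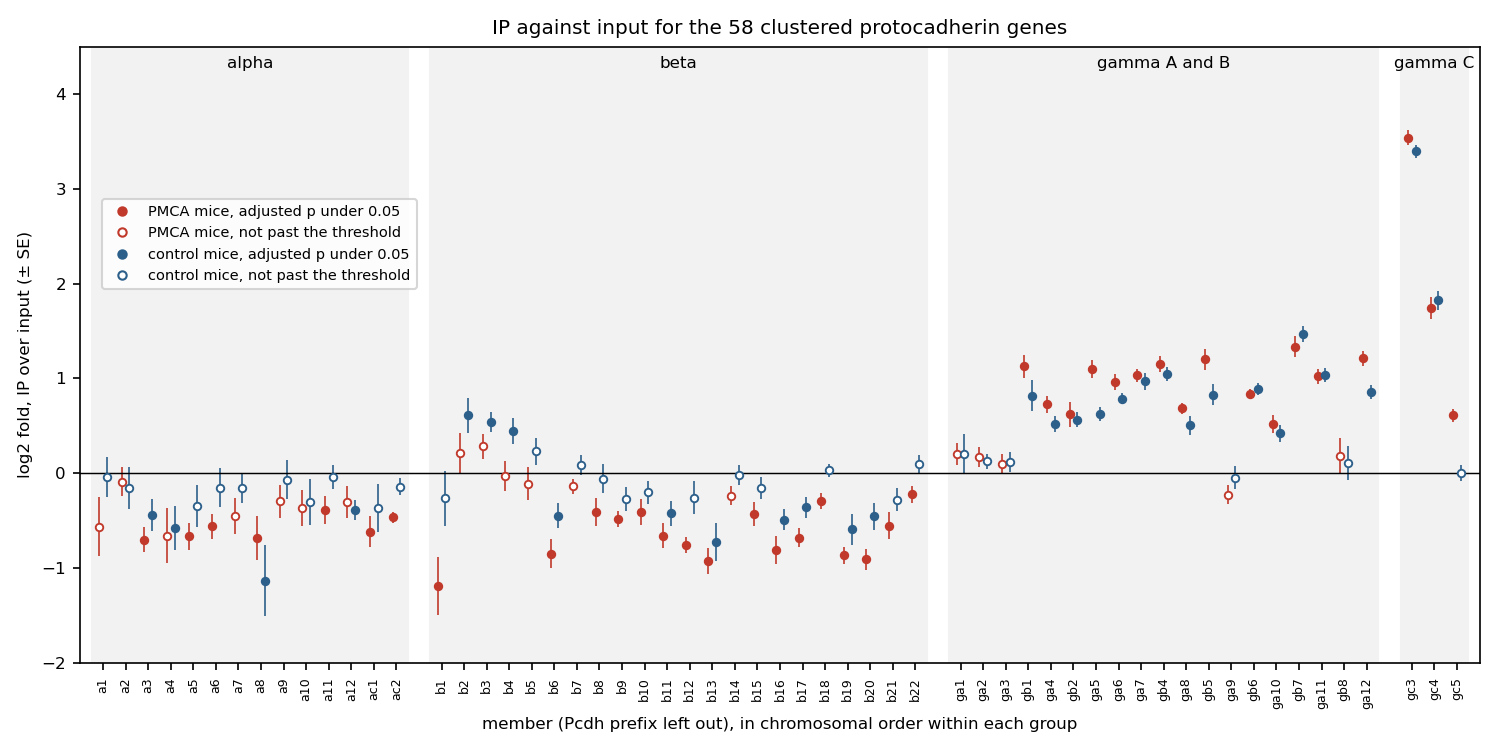
Log2 fold of IP over input (vertical axis, ± SE, n = 4 and 4) for each of the 58 members in chromosomal order within its group (horizontal axis), in PMCA mice (red) and control mice (blue), with filled points past the threshold. Most gamma members lie above 0, with Pcdhgc3 at 3.54 and 3.40 and Pcdhgc5 at -0.00 in control mice, whereas the alpha members lie below 0 in both treatments.

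Pcdhgc3, a C-type gamma member whose protein binds Axin1 of the Wnt pathway, was the most enriched of the 58. It lay at 9.62, 9.64, 9.50 and 9.30 log2 CPM in the IP of PMCA mice 1 to 4, against 6.03, 6.01, 5.98 and 5.85 in their inputs. In control mice it lay at 9.02, 9.29, 9.30 and 9.11 in IP, against 5.86, 5.76, 5.69 and 5.83 in input. Every IP library was thus far above every input. The log2 fold was 3.54 in PMCA mice (11.7-fold, SE 0.079, adjusted p = 1.27e-10) and 3.40 in control mice (10.5-fold, SE 0.073, adjusted p = 3.31e-10). Among all genes tested Pcdhgc3 ranked 30 of 16345 from the highest fold in PMCA mice and 36 of 16072 in control mice.

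Pcdhgc4, the member needed for the survival of many cortical interneurons in mice, was next. Its IP libraries lay at 4.70, 4.74, 4.49 and 4.39 log2 CPM in PMCA mice, against 2.74, 3.07, 2.61 and 2.94 in input. Control mice had 4.75, 4.70, 4.58 and 4.46 in IP, against 2.99, 2.86, 2.76 and 2.58 in input. The groups did not overlap in either treatment, and Pcdhgc4 rose by 1.74 in PMCA mice (SE 0.12, adjusted p = 2.56e-07) and by 1.83 in control mice (SE 0.10, adjusted p = 4.84e-08) on the log2 scale.

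Pcdhgc5, the last gene of the gamma cluster, behaved differently by treatment. In PMCA mice its IP libraries lay at 7.34, 7.33, 7.14 and 7.23 log2 CPM, against 6.80, 6.58, 6.64 and 6.57 in input, all IP libraries above all inputs (log2 fold 0.61, SE 0.068, adjusted p = 1.27e-05). In control mice IP lay at 6.72, 6.59, 6.32 and 6.64, against 6.66, 6.54, 6.50 and 6.58 in input, and the groups overlapped (log2 fold -0.00, SE 0.082, adjusted p = 0.997). With total reads in place of the authors' scaling factors, Pcdhgc5 was called lower in the IP of control mice (-0.28, adjusted p = 0.0109).

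Both C-type members of the alpha cluster fell in the IP of PMCA mice. Pcdhac2, which serotonergic neurons need to spread their axons evenly, lay at 4.77, 4.89, 4.81 and 4.70 log2 CPM in the IP of PMCA mice, against 5.36, 5.23, 5.19 and 5.25 in their inputs. It fell by 0.47 there on the log2 scale (SE 0.061, adjusted p = 4.45e-05). In control mice its IP libraries at 5.29, 4.95, 4.89 and 5.04 overlapped the inputs at 5.28, 5.09, 5.26 and 5.10, and the difference did not pass (-0.14, SE 0.090, adjusted p = 0.165). Pcdhac1 was less abundant in reads, at 1.42, 1.18, 1.10 and 0.76 log2 CPM in PMCA IP, against 1.90, 1.57, 1.91 and 1.57 in PMCA input. It fell by 0.62 in PMCA mice (SE 0.17, adjusted p = 0.006) and had a log2 fold of -0.37 in control mice (SE 0.25, adjusted p = 0.203), where the libraries overlapped. Without the IP library of control 1 both were called lower in control mice, Pcdhac2 at -0.23 (adjusted p = 0.0136) and Pcdhac1 at -0.58 (adjusted p = 0.0325). With total reads both were called there too, Pcdhac2 at -0.42 (adjusted p = 0.00155) and Pcdhac1 at -0.64 (adjusted p = 0.0377).

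**Figure D2:**
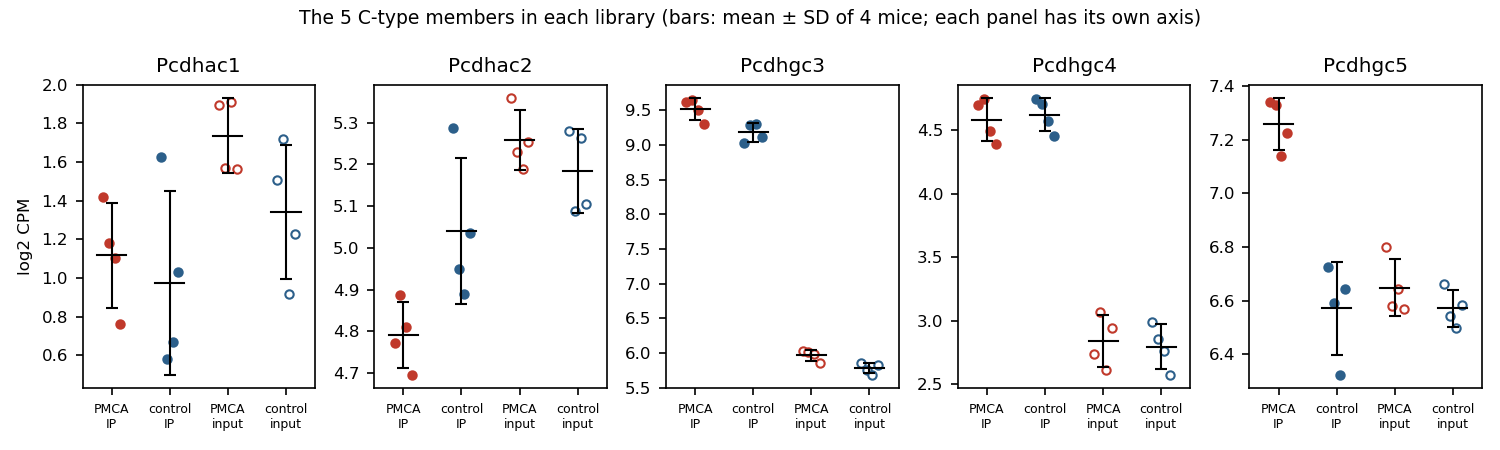
Level (log2 CPM, vertical axis, own scale in each panel) of the 5 C-type members in each library, by group, with black bars for mean ± SD (n = 4). Pcdhgc3 and Pcdhgc4 are high in all 8 IP libraries, and Pcdhgc5 stands apart only in PMCA IP, at 7.14 to 7.34.

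Of the gamma A and B members, 14 of 19 rose in IP in both treatments. The gamma A members had a median log2 fold of 0.71 in PMCA mice and 0.51 in control mice, with 8 of 12 higher in each. The gamma B members had medians of 1.13 and 0.83, with 6 of 7 higher in each. These members encode the variable extracellular and transmembrane parts of gamma protocadherins and end in the same shared cytoplasmic part as the C-type gamma members. The largest rise among them was that of Pcdhgb7, which lay at 4.97, 5.28, 5.11 and 5.09 log2 CPM in PMCA IP, against 3.87, 3.96, 3.83 and 3.44 in PMCA input (log2 fold 1.34, SE 0.11, adjusted p = 1.59e-06). In control mice Pcdhgb7 had 4.99, 5.12, 5.13 and 5.04 in IP, against 3.76, 3.50, 3.73 and 3.41 in input (1.47, SE 0.088, adjusted p = 7.37e-08). Every IP library of Pcdhgb7 was above every input.

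For several others the values of both treatments are set side by side, and the interaction test given further on did not pass for any of these. Pcdhga11 had log2 folds of 1.02 in PMCA mice and 1.04 in control mice, Pcdhga7 had 1.03 and 0.97, Pcdhgb4 had 1.15 and 1.04, and Pcdhgb6 had 0.84 and 0.89 (all adjusted p at most 2.55e-06). Pcdhgb1 had 1.13 and 0.82, Pcdhga6 had 0.96 and 0.79, Pcdhgb5 had 1.20 and 0.83, and Pcdhga12 had 1.21 and 0.86. Within mice, the IP level of Pcdhga12 minus the input level was 1.12, 1.41, 1.20 and 1.12 in PMCA mice, against 0.71, 0.91, 1.05 and 0.77 in control mice, with no overlap. Pcdhga12 was not alone in this. The treatments did not overlap for Pcdhga6 and Pcdhgb1 either. In the other direction they did not overlap for Pcdhb4, Pcdhb6, Pcdhb7, Pcdhb12, Pcdhb18, Pcdhb20 and Pcdhb21, named after their values were seen. The share of all genes without such overlap was not computed. The 5 gamma members that did not pass in either treatment were Pcdhga1, Pcdhga2, Pcdhga3, Pcdhga9 and the pseudogene Pcdhgb8, which are named after their values were seen. Of these Pcdhga9 lay nearest to depletion, at a log2 fold of -0.23 in PMCA mice (adjusted p = 0.0577) and -0.05 in control mice (adjusted p = 0.715). Pcdhga9 was called lower in PMCA mice with the animal as a replicate block (-0.23, adjusted p = 0.0358) and in both treatments with total reads (-0.53 and -0.33). In PMCA mice Pcdhga1 was called higher without the IP library of PMCA 3 (0.32, adjusted p = 0.00808), and Pcdhga2 without the input of PMCA 1 (0.25, adjusted p = 0.0402). Pcdhga1 to Pcdhga3 are the first 3 genes of the gamma cluster, whose variable exons lie farthest from the constant exons.

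The 12 variable alpha members all had a log2 fold below 0 in both treatments. Of them 5 fell in PMCA mice (Pcdha3, Pcdha5, Pcdha6, Pcdha8 and Pcdha11) and 4 in control mice (Pcdha3, Pcdha4, Pcdha8 and Pcdha12), of which Pcdha3, Pcdha4, Pcdha5 and Pcdha11 are named after their values were seen. Pcdha8 lay at -0.35, -0.14, 0.52 and -0.44 log2 CPM in PMCA IP, against 0.37, 0.77, 0.71 and 0.48 in PMCA input, and at -1.0, -1.96, -1.32 and -0.45 in control IP, against -0.65, 0.67, -0.24 and 0.02 in control input. It fell by 0.68 in PMCA mice (SE 0.23, adjusted p = 0.0209) and by 1.13 in control mice (SE 0.38, adjusted p = 0.017) on the log2 scale, although the libraries overlapped in both. Its call in PMCA mice was lost without the IP library of PMCA 1 (adjusted p = 0.0548) or the input of PMCA 2 (0.0571) or PMCA 3 (0.0531), and that in control mice without the input of control 2 (-0.89, adjusted p = 0.056). The calls of Pcdha11 in PMCA mice (adjusted p 0.0632 to 0.0896) and of Pcdha3 (0.0663 to 0.0953) and Pcdha4 (0.0623 to 0.0928) in control mice were also lost without any of several single libraries, and that of Pcdha4 with the animal as a replicate block (0.0656). Pcdha4 lay at -0.66 in PMCA mice (adjusted p = 0.0577), where the block gave a call (0.0302). Pcdha6 fell by 0.56 in PMCA mice (SE 0.13, adjusted p = 0.00254) and lay at -0.15 in control mice (adjusted p = 0.511). Pcdha12, the last variable alpha gene, lay at -0.30 in PMCA mice (adjusted p = 0.119), was called there without the IP library of PMCA 3 (-0.42, adjusted p = 0.0371), and fell by 0.39 in control mice (SE 0.11, adjusted p = 0.00689).

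Beta genes that fell in IP included both named for their high level, Pcdhb16 and Pcdhb17. Pcdhb16 lay at 3.75, 3.72, 3.64 and 4.35 log2 CPM in PMCA IP, against 4.65, 4.86, 4.70 and 4.51 in PMCA input (log2 fold -0.81, SE 0.15, adjusted p = 0.000517). In control mice it had 4.39, 4.08, 3.79 and 3.97 in IP, against 4.52, 4.58, 4.52 and 4.59 in input (-0.49, SE 0.11, adjusted p = 0.00178). All IP libraries lay below all inputs of the same treatment. Pcdhb17 fell by 0.68 in PMCA mice (SE 0.099, adjusted p = 9.88e-05) and by 0.36 in control mice (SE 0.11, adjusted p = 0.0123) on the log2 scale. Pcdhb1, the beta member with fewest reads, fell by 1.19 in PMCA mice (SE 0.31, adjusted p = 0.0049) and lay at -0.27 in control mice (SE 0.29, adjusted p = 0.409).

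The 3 beta members that rose in the IP of control mice were Pcdhb2, Pcdhb3 and Pcdhb4, named here after their values were seen. Pcdhb2 had a log2 fold of 0.61 (SE 0.19, adjusted p = 0.0115), Pcdhb3 one of 0.54 (SE 0.11, adjusted p = 0.000817) and Pcdhb4 one of 0.45 (SE 0.14, adjusted p = 0.0112). With total reads in place of the scaling factors the calls of Pcdhb2 and Pcdhb4 were lost (0.34 and 0.17). In PMCA mice the same 3 genes had log2 folds of 0.21, 0.28 and -0.03, and none passed (adjusted p 0.377, 0.076 and 0.868). With the animal as a replicate block Pcdhb3 was called higher in PMCA mice too (0.28, adjusted p = 0.0497), as it was without the input of PMCA 1 (0.37, adjusted p = 0.0332) or the IP library of PMCA 3 (0.37, adjusted p = 0.0308).

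The beta genes, each 1 exon, can be set beside each other per length. In control input the level per kilobase of annotated length was highest for Pcdhb17 (7.58 ± 0.32 CPM per kb, SD, n = 4), followed by Pcdhb20 (4.89 ± 0.33) and Pcdhb16 (4.45 ± 0.11). The lowest was that of Pcdhb1 (0.289 ± 0.039), below Pcdhb2 (0.81 ± 0.11). Pcdhb20, Pcdhb16, Pcdhb19 (4.40 ± 0.36) and Pcdhb14 (4.39 ± 0.35) did not differ beyond their spread. Pcdhb20, Pcdhb19, Pcdhb14 and Pcdhb2 are named for this rank, after their values were seen. In PMCA IP Pcdhb17 was again the highest (4.77 ± 0.69 CPM per kb) and Pcdhb1 the lowest (0.15 ± 0.035). Along the cluster the level per kilobase in control input went up with gene order (Spearman's rho 0.78, Pearson's r 0.77, n = 22 genes). The log2 fold of IP over input in control mice went down with it (rho -0.45, r -0.50), and that in PMCA mice had rho -0.33 and r -0.33. The genes share libraries and neighbours, so these correlations are descriptions.

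Summed over members, gamma reads carried most of the protocadherin signal in IP. The gamma sum was 1422 ± 96.5 CPM in PMCA IP and 1136 ± 46.2 in control IP, against 464 ± 23.7 in PMCA input and 423 ± 20.1 in control input (SD, n = 4 each). The beta sum was 159 ± 12 CPM in PMCA IP and 185 ± 24.4 in control IP, against 229 ± 11.9 in PMCA input and 214 ± 3.18 in control input. The alpha sum was 58.6 ± 5.58 in PMCA IP and 64.8 ± 8.23 in control IP, against 80.2 ± 3.45 in PMCA input and 74.2 ± 3.68 in control input. Gamma genes thus held 86.7% of the reads of all members in PMCA IP and 82.0% in control IP, against 60% in PMCA input and 59.5% in control input. The gamma sum without Pcdhgc3 was also higher in every IP library than in every input of the same treatment, at 661 to 736 CPM in PMCA IP, against 376 to 425 in PMCA input, and 523 to 579 in control IP, against 353 to 393 in control input.

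Within the gamma cluster Pcdhgc3 alone took 51.6% of reads in PMCA IP (range 48.0% to 54.0%) and 51.3% in control IP (47.3% to 54.7%), against 13.5% in PMCA input and 13.1% in control input. Pcdhgc5 took 10.8% in PMCA IP and 8.44% in control IP, against 21.6% in PMCA input and 22.5% in control input. The C-type gene with the larger share of gamma reads was therefore Pcdhgc5 in every input and Pcdhgc3 in every IP. These are shares of reads and not of transcripts, and they carry no test.

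**Figure D3:**
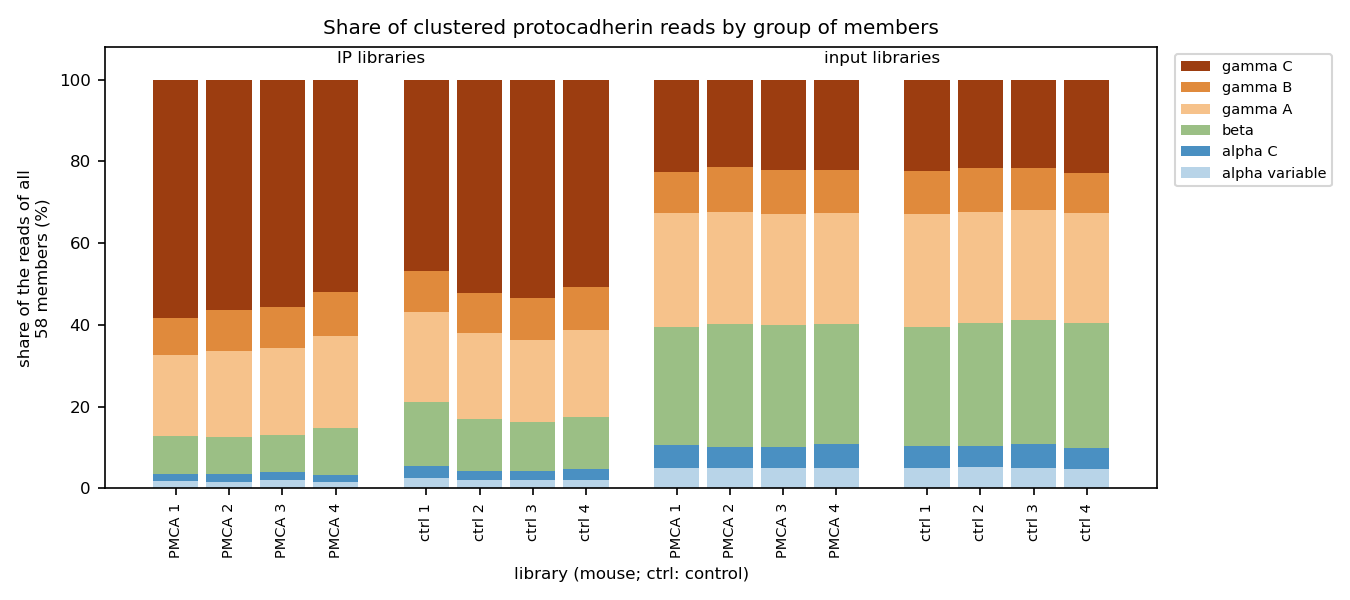
Share of the reads of all 58 members (vertical axis, %) held by each group of members, 1 bar per library, IP on the left and input on the right. Gamma C genes hold 52.0% to 58.4% in PMCA IP and 46.8% to 53.3% in control IP, against 21.3% to 22.9% in the inputs, and beta genes hold less in every IP library than in any input.

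Markers of other cells moved between the fractions too. The striatal interneuron list had 12 markers, of which 8 were higher and 2 lower in IP in PMCA mice (median log2 fold 1.45), and 11 were higher and 1 lower in control mice (1.78). Their summed level was 1112 to 1235 CPM in PMCA IP and 1386 to 1440 in control IP, against 305 to 343 in PMCA input and 304 to 339 in control input. All 12 markers of striatal projection neurons fell in both treatments (medians -1.61 and -1.50). Of 15 general neuron markers 11 fell and 2 rose in PMCA mice, and 10 fell and 3 rose in control mice. All 6 ependymal markers rose in both treatments (medians 2.31 and 2.34). Of 10 oligodendrocyte markers 7 rose and none fell in PMCA mice, and 5 rose and 1 fell in control mice. Of 7 oligodendrocyte precursor markers 4 rose and 1 fell in PMCA mice, and 6 rose and 1 fell in control mice. Of 12 endothelial and mural markers 2 rose and 10 fell in each treatment. Across all genes tested 76.8% passed in PMCA mice (37.4% higher, 39.3% lower) and 77.5% in control mice (39.1% higher, 38.4% lower). The number of markers that passed does not by itself set a list apart. No marker was at 0 in any library. The part of these cells in the levels of the protocadherins was not tested.

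Setting the IP libraries of PMCA mice against those of control mice asked whether the calcium pump went with other levels on tagged ribosomes. Of the 58 members 8 rose and none fell, and all 8 were gamma members. They were Pcdhga4, Pcdhga5, Pcdhga8 and Pcdhga12 of 12 gamma A members, Pcdhgb4 and Pcdhgb5 of 7 gamma B members, and Pcdhgc3 and Pcdhgc5 of 3 gamma C members. Across all genes tested 19.6% passed the threshold, 9.54% higher and 10.1% lower, so the share of members that passed lay below that of all genes for either direction and above it for rises. Of the gamma members 21 of 22 lay above 0 (median log2 fold 0.25), of the beta members 22 of 22 lay below 0 (median -0.21), and of the alpha members 10 of 14 lay below 0 (median -0.07). Of all genes tested 48.1% lay above 0 and 51.9% below, with a median of -0.01. In 8 members every PMCA library lay above every control library, and in 1 member every PMCA library lay below. Of all genes tested 11.3% lay above and 14.2% below in this way, so non-overlapping rises were near the share of all genes.

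**Figure D4:**
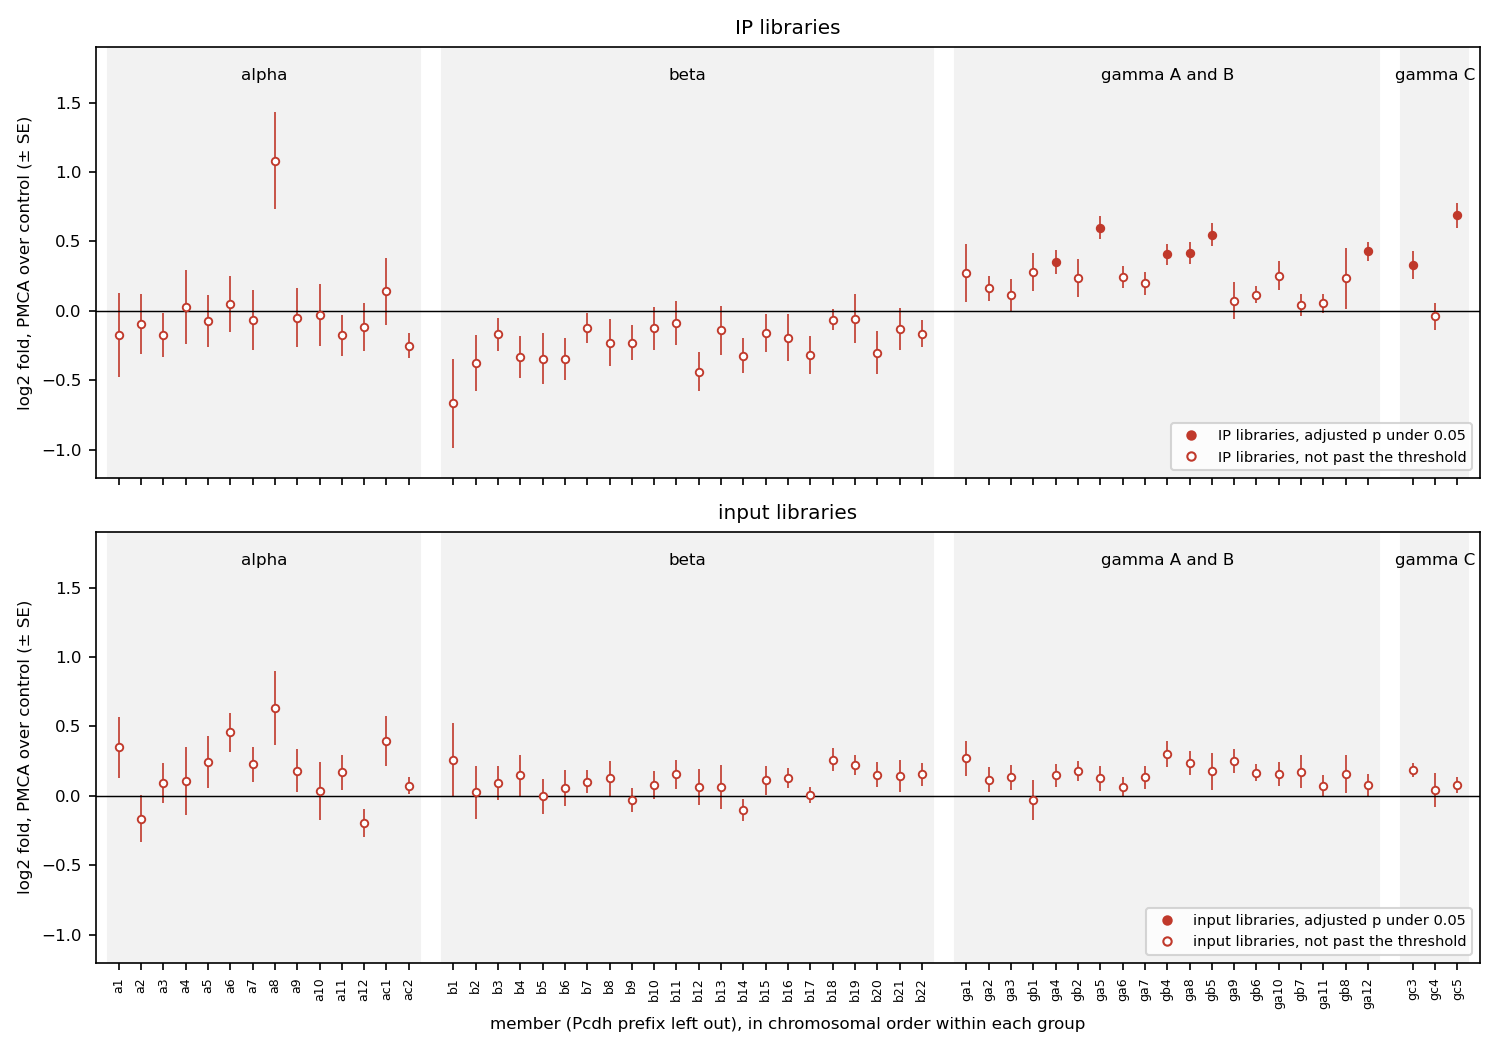
Log2 fold of PMCA over control mice (vertical axis, ± SE, n = 4 and 4) for each of the 58 members in chromosomal order within its group, in IP (top) and input (bottom), with filled points past the threshold. In IP the 8 filled points are all gamma members and the beta members all lie below 0. In input no point is filled.

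Pcdhgc5 had the largest rise of the 8. It lay at 7.34, 7.33, 7.14 and 7.23 log2 CPM in PMCA IP, against 6.72, 6.59, 6.32 and 6.64 in control IP, and no library overlapped (log2 fold 0.69, 1.61-fold, SE 0.090, adjusted p = 0.00253). Its share of gamma reads was 10.2% to 11.4% in PMCA IP and 6.94% to 9.61% in control IP. Pcdhgc4, its neighbour, did not pass, with a log2 fold of -0.04 (SE 0.099, adjusted p = 0.811), and held 1.60% to 1.78% of gamma reads in PMCA IP, against 2.0% to 2.44% in control IP. Such a share also falls when other gamma reads rise.

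Pcdhgc3 rose by 0.33 on the log2 scale (1.26-fold, SE 0.10, adjusted p = 0.0416), and its libraries overlapped: PMCA 4 at 9.30 lay level with control 2 and control 3 at 9.29 and 9.30. The call was lost without any 1 of control 1, 2, 3 or 4 or PMCA 1, 2 or 3 (adjusted p 0.0539 to 0.11), with no filter on low counts (0.077) and with Xist as a covariate (0.0522). In those fits the log2 fold stayed between 0.28 and 0.37.

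Among the gamma A members Pcdhga5 rose most, at 4.33, 4.53, 4.35 and 4.22 log2 CPM in PMCA IP, against 3.80, 3.67, 3.79 and 3.77 in control IP (log2 fold 0.60, SE 0.081, adjusted p = 0.00281). Pcdhga12 lay at 5.33, 5.35, 5.31 and 5.11 in PMCA IP, against 4.85, 4.84, 4.89 and 4.80 in control IP (0.43, SE 0.069, adjusted p = 0.00429). Pcdhga8 lay at 4.90, 4.96, 4.96 and 4.96 in PMCA IP, against 4.71, 4.54, 4.38 and 4.48 in control IP (0.42, SE 0.077, adjusted p = 0.00703). In all 3 of these genes each PMCA library was above each control library. The same held for Pcdhga4, at 4.75 to 4.95 in PMCA IP and 4.29 to 4.59 in control IP (0.35, SE 0.084, adjusted p = 0.0183), whose call was lost without control 3 (adjusted p = 0.0503) or PMCA 2 (0.0534).

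Of the gamma B members Pcdhgb5 lay at 4.13, 4.23, 4.45 and 4.39 log2 CPM in PMCA IP, against 3.69, 3.70, 3.81 and 3.79 in control IP (log2 fold 0.55, SE 0.086, adjusted p = 0.00391). Pcdhgb4 lay at 4.03, 4.25, 4.16 and 4.19 in PMCA IP, against 3.71, 3.70, 3.86 and 3.73 in control IP (0.41, SE 0.076, adjusted p = 0.00714). No library overlapped in either gene. Other gamma members that rose in IP over input did not pass between treatments. Pcdhgb7 had a log2 fold of 0.04 (adjusted p = 0.729), Pcdhga11 of 0.05 (0.61) and Pcdhgb6 of 0.12 (0.20), while Pcdhga6 lay at 0.24 (0.0567) and Pcdhga7 at 0.20 (0.113). Pcdhga6 was called higher with Xist as a covariate (adjusted p = 0.024) and without PMCA 3 (0.31, adjusted p = 0.0292).

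**Figure D5:**
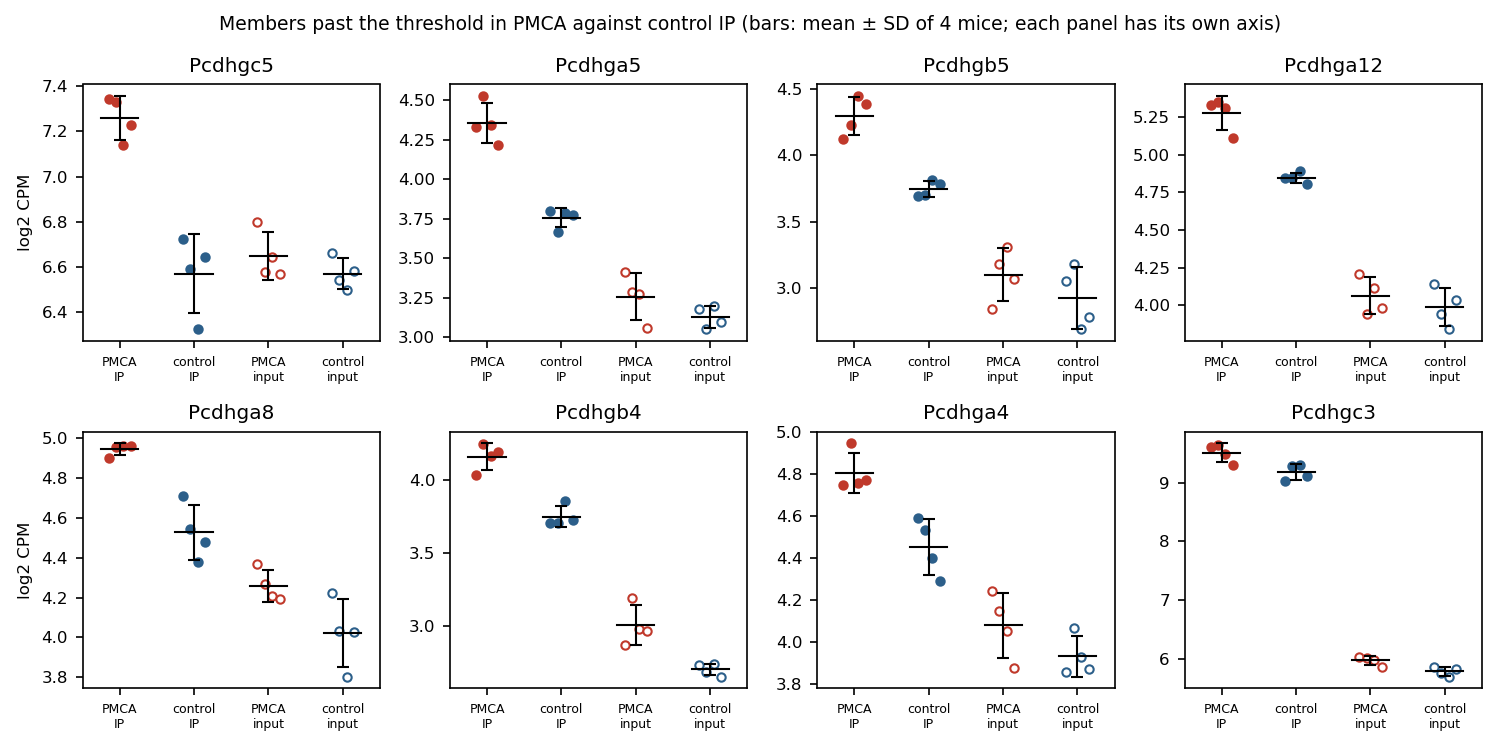
Level (log2 CPM, vertical axis, own scale in each panel) of the 8 members past the threshold in PMCA IP against control IP, in each library by group, with black bars for mean ± SD (n = 4). The PMCA IP libraries lie above all control IP libraries in every panel but that of Pcdhgc3, and the 2 input groups differ by less than the IP groups in each panel.

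None of the 22 beta members passed in limma (5 had an unadjusted p under 0.05, and none was called in limma with voom weights), and the smallest adjusted p was 0.0549, for Pcdhb12 (-0.44), which is named after its values were seen. Pcdhb12 was called lower with total reads (-0.45, adjusted p = 0.0485) and without control 4 (-0.57, adjusted p = 0.0128). Pcdhb17 lay at 3.94, 3.86, 3.77 and 4.24 log2 CPM in PMCA IP, against 4.63, 4.25, 4.04 and 4.16 in control IP, with overlap (log2 fold -0.32, SE 0.14, adjusted p = 0.132). Pcdhb16 had -0.19 (adjusted p = 0.458) and Pcdhb1 had -0.66 (SE 0.32, adjusted p = 0.17). Without control 1 only 19 of 22 beta members lay below 0, with a median of -0.14. Without PMCA 4, Pcdhb14 (-0.42, adjusted p = 0.0258) and Pcdhb17 (-0.41, adjusted p = 0.0478) were called lower. The beta share of all members' reads was 8.98% to 11.4% in PMCA IP and 12% to 15.7% in control IP.

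None of the 14 alpha members passed (2 had an unadjusted p under 0.05). Pcdha8 had the largest log2 fold of all members, 1.08 (SE 0.35, adjusted p = 0.0537). All its PMCA libraries lay above all its control libraries, but only just, with PMCA 4 at -0.44 and control 4 at -0.45 log2 CPM. Its reads were few, 36 to 70 in a PMCA IP library and 12 to 31 in a control IP library. Pcdha8 was called in limma with voom weights (1.09, adjusted p = 0.0499) and with Xist as a covariate (adjusted p = 0.023), and also without control 4 (1.32, adjusted p = 0.0281) or PMCA 4 (1.19, adjusted p = 0.0497). At -0.25, Pcdhac2 did not pass either (SE 0.091, adjusted p = 0.0813), and its PMCA libraries lay just below its control libraries, the highest of the first and the lowest of the second both rounding to 4.89. Pcdhac1 had a log2 fold of 0.14 (adjusted p = 0.713), Pcdha6 of 0.05 (0.885) and Pcdha12 of -0.12 (0.672). The median of the alpha cluster was 0.04 without PMCA 4, so it had no settled direction.

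Other RNA in the precipitates differed by treatment as well. Of 15 neuron markers 9 fell and 1 (Meg3) rose, with a summed level of 3501 to 4119 CPM in PMCA IP and 4136 to 5331 in control IP. Of 12 interneuron markers 8 fell (1112 to 1235 CPM in PMCA IP, 1386 to 1440 in control IP). Of 15 astrocyte markers 4 rose and none fell (50150 to 59482 CPM in PMCA IP, 38126 to 50047 in control IP). All 6 nuclear noncoding RNAs examined rose (3228 to 5685 CPM in PMCA IP, 1511 to 2257 in control IP), and Meg3 is on that list too. Of 12 microglial markers 5 rose (86.0 to 138.5 CPM in PMCA IP, 67.3 to 86.7 in control IP), and of 12 endothelial and mural markers 6 rose and 2 fell (102 to 112 CPM in PMCA IP, 81.0 to 90.2 in control IP). None of 10 oligodendrocyte, 7 oligodendrocyte precursor and 6 ependymal markers passed, and 1 of 12 projection neuron markers fell. Across all genes tested, 9.54% rose and 10.1% fell. None of these markers was at 0 in any library, and their part in the protocadherin differences was not tested.

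In input, which holds RNA of all striatal cells, no member passed the threshold between PMCA and control mice. Of all genes tested 0.442% did, 0.362% higher and 0.0797% lower. In limma 10 members had an unadjusted p under 0.05, voom weights also gave 0 calls, and the smallest adjusted p was 0.121, for Pcdhgc3. Of the 58 members 52 lay above 0, with medians of 0.18 for alpha, 0.11 for beta and 0.15 for gamma members, and a median of -0.01 over all genes. Of all genes tested 48.3% lay above 0. In 4 members every PMCA input lay above every control input, as in 4.99% of all genes tested. Pcdhgc3 had a log2 fold of 0.19 (SE 0.054), at 6.03, 6.01, 5.98 and 5.85 log2 CPM in PMCA input and 5.86, 5.76, 5.69 and 5.83 in control input. Of the other members that rose in IP, Pcdhgb4 had 0.30 (SE 0.090, adjusted p = 0.13) with no overlap of libraries, and Pcdhgc5 had 0.08 (SE 0.057, adjusted p = 0.478) with overlap. Pcdha6, at 0.46 (SE 0.14, adjusted p = 0.133), was called with Xist as a covariate (adjusted p = 0.0484). Of 15 astrocyte markers Slc1a2 and Slc1a3, glutamate transporters, rose in input (summed list 4533 to 4832 CPM in PMCA input, 4040 to 4163 in control input), and the part of this in the protocadherin values was not tested.

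Whether the treatment effect differed between IP and input was tested in all 16 libraries, with no term for the animal. The 2 libraries of a mouse were thus treated as independent in this test. It did for 2 of the 58 members, both higher, while 2.03% of all genes tested passed (0.972% higher, 1.06% lower). The effect on Pcdhgc5 was larger in IP by 0.61 log2 units (SE 0.11, adjusted p = 0.0157). Within mice, the IP level of Pcdhgc5 minus the input level was 0.54, 0.75, 0.49 and 0.66 in PMCA mice, against 0.06, 0.05, -0.17 and 0.06 in control mice. The effect on Pcdhga5 was larger in IP by 0.47 (SE 0.12, adjusted p = 0.0468), and the same within-mouse differences were 0.92, 1.24, 1.08 and 1.16 in PMCA mice, against 0.62, 0.62, 0.59 and 0.68 in control mice. Neither gene's treatments overlapped in these differences, whose means the test itself compares, so this is no separate support. The call of Pcdhga5 was lost with no filter on low counts (adjusted p = 0.0564), with total reads (0.0592), with voom weights (0.0546) and without most single libraries.

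For the other 6 gamma members that rose in IP, the difference from input did not pass. Pcdhga12 had 0.35 (SE 0.11, adjusted p = 0.106) and was called without the IP library of PMCA 4 (0.41, adjusted p = 0.0311). The others were Pcdhgb5 at 0.37 (SE 0.16, adjusted p = 0.265), Pcdhga4 at 0.21 (0.433), Pcdhga8 at 0.18 (0.482), Pcdhgc3 at 0.15 (0.56) and Pcdhgb4 at 0.11 (0.688). All 22 beta members lay below 0 in this difference (median -0.32, against 0.01 for all genes), and none passed in limma (6 at an unadjusted p under 0.05). With the animal as a replicate block, which pairs both libraries of a mouse, Pcdhb12 was called lower (-0.50, adjusted p = 0.0372, against 0.226 without the block).

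Genes around the protocadherin pathway were set beside them. Of 11 listed proteins that shape protocadherin promoters, CTCF and cohesin with its loaders and release factors, 10 were analysed here and 1 rose in PMCA IP. This was Nipbl, the cohesin loader (log2 fold 0.37, SE 0.094, adjusted p = 0.023). Of 9 silencing factors Dnmt3a, a DNA methyltransferase that acts on protocadherin promoters in mouse neurons, rose (0.35, SE 0.071, adjusted p = 0.0107). The medians of the 2 lists were -0.01 and 0.04. Of all genes tested 9.54% rose and 10.1% fell, so 1 rise in each list lay near that share.

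Of 20 cytoplasmic partners and processing enzymes, 4 fell in PMCA IP and none rose (median -0.02), while 10.1% of all genes tested fell and 9.54% rose. Nckap1 (-0.26, adjusted p = 0.0179) and Abi1 (-0.27, adjusted p = 0.0161) are subunits of the WAVE complex, which builds branched actin. Pdcd10 (-0.21, adjusted p = 0.0456) is a small adaptor protein, and Ret (-0.50, adjusted p = 0.0208) is a receptor tyrosine kinase. Of 9 delta protocadherins, which lie outside the clusters, Pcdh1 rose (0.20, adjusted p = 0.0421) and Pcdh8 fell (-0.51, adjusted p = 0.00253), with 7 of 9 higher in IP over input in each treatment. Across all genes tested, 37.4% were higher in IP over input in PMCA mice and 39.1% in control mice. None of the genes of these 4 lists passed between PMCA and control input (adjusted p over all genes tested, limma), where 1, 4, 3 and 3 of them had an unadjusted p under 0.05, in the order given.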

How the data were processed

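The authors deposited log2 CPM per gene for each of 16 libraries. The submitters' processing notes name limma, edgeR, HTSeq and STAR, with build mm10, and the roles, versions, annotation and strand setting are not stated in the sources used here. Per the labels' protocols, libraries were stranded and depleted of ribosomal RNA. Undoing the log2 scale and a mean prior count of 0.25 gave whole reads for 100% of values (tolerance 0.001). All members matched RefSeq symbols of GRCm38.p6, which gave gene order and lengths of beta genes. Protocadherin sequences were not used here.

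Each comparison was a linear model of the deposited log2 CPM in limma 3.58.1 (R 4.3.3), moderated by eBayes with a mean-variance trend, with two-sided tests. No main fit had a term for the animal, so comparisons across fractions left the pairing of IP and input unused. Genes needed 10 reads, scaled to a median library, in at least 4 libraries and 15 in all. Members, gene lists and tests were chosen with earlier results of these data known. Named members were the 5 C-type genes, the 10 largest folds past the threshold in each comparison and the 2 of highest mean level in the alpha, beta, gamma A and gamma B groups. Of other lists, genes past the threshold between treatments were named. Simulated data were used to test the fits. Replicates of a group had r of 0.978 to 0.985 over genes, and no pair was alike within sampling noise. The labels give no batch. Pairing of IP and input comes from the animal numbers: over 13123 genes, deviations of both libraries of a mouse correlated with r between 0.24 and 0.682 in 8 of 8 mice, against -0.473 to 0.199 between mice.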

Additional observations from a re-analysis of the deposited data

Results flagged for a closer look

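Of 116 groups of 4 libraries tested for a library far from the other 3, 6 had one, and chance alone flags about 1 in 20. Pcdhb16 lay at 4.35 log2 CPM in PMCA IP 4, above 3.64 to 3.75 in the others, and Pcdhga12 lay at 5.11 in the same library, below 5.31 to 5.35. Pcdhga4 lay at 4.95 in PMCA IP 2 (4.75 to 4.77 in the others), and Pcdhga8 at 4.90 in PMCA IP 1, close to the others at 4.96. Pcdhgb4 lay at 3.86 in control IP 3 (3.70 to 3.73). The summed level of the variable alpha members was 34.7 CPM in control IP 1 and 27.6 to 28.4 in the other control IP libraries.

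The treatment effect differed between IP and input, by an interaction test in limma, for Pcdhgc5 (0.61 on the log2 scale, adjusted p = 0.0157) and Pcdhga5 (0.47, adjusted p = 0.0468). Both were larger in IP. Within-mouse differences of all 4 PMCA mice exceeded those of all 4 control mice in both genes. The interaction test compares the means of these same differences, so their separation is no separate support. The call of Pcdhga5 was lost in 17 of 21 alternative fits.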

How the results depend on the processing

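Alternatives were no filter on low counts, total reads without scaling factors, a prior count of 2, voom weights, Xist as a covariate, the animal as a replicate block and leaving out each library. None turned the direction of a named member's call or, for IP over input, of a cluster sum. Between treatments in IP, the variable alpha sum was 28.7 CPM in PMCA mice and 29.7 in control mice. Its libraries overlapped, so it had no settled direction. Between treatments in IP, members called lower numbered 1 with total reads (Pcdhb12) and 0 to 2 with a library left out, and members called higher 6 to 9. In input, 1 was called higher with Xist as a covariate. For the difference between fractions, 1 was called higher with no filter, total reads or voom weights and 1 to 3 with a library left out, and the paired fit with the replicate block called 1 lower. That block gave 18 higher and 27 lower members for IP over input in PMCA mice and 19 and 12 in control mice. Total reads gave 26 lower in control mice, where the median over all genes tested was -0.28 (-0.35 in PMCA mice). With total reads, log2 ratios of sums for IP over input in PMCA mice were -0.75 (variable alpha), -0.78 (alpha C), -0.84 (beta), 0.41 (gamma A), 0.68 (gamma B) and 2.11 (gamma C), and in control mice -0.53, -0.43, -0.49, 0.33, 0.66 and 1.88 in the same order. Gamma members above 0 then numbered 17 of 22 in PMCA mice and 16 of 22 in control mice. With means of log2 CPM in place of sums, gamma A gave 0.62 in PMCA mice and 0.51 in control mice, gamma C 1.97 and 1.74, and gamma B 0.82 in control mice. Alpha C gave -0.054 for the treatment in IP and 0.23 in input. Of the values of named members under these alternatives, 1630 stayed on their side of the threshold, 33 dropped below it and 16 rose past it. The number of mice and the low reads of Pcdhb1 and variable alpha members limit what could be detected there.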
